A study of Homo sapiens with 4 samples.

Results

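The genes described here are 10 of the 51103 genes in the deposited tables, all from the bone morphogenetic protein (BMP) branch of TGF-beta family signalling. They are the ligand genes BMP4 and BMP5, the SMAD genes SMAD6, SMAD7 and SMAD9, the inhibitor-of-differentiation genes ID1, ID2, ID3 and ID4, and the transcription factor gene ATOH8. They were chosen by name, with their measured FGF2 against NC values in these same libraries in view, so those differences are a description and were not tested. The study sequenced polyadenylated RNA of cells labelled AGS, an established human gastric adenocarcinoma line. In the FGF2 group (2 libraries) the cells received recombinant human FGF2, a secreted growth factor, at 20 ng/mL for 24 h. The group named NC (2 libraries) served as the comparison, but the labels do not spell out the name, and the treatment text attached to it is the same as that of the FGF2 group. Both groups share the cell line, the serum-containing medium and the plating step. The libraries come from 1 line, and nothing in the labels gives separate cultures.

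BMP ligands bind pairs of type I and type II receptor kinases, which phosphorylate SMAD1, SMAD5 and SMAD9. These join SMAD4 and enter the nucleus, where the ID genes are among the classical direct targets. ID proteins have a helix-loop-helix but no DNA-contacting basic region, so they tie up the E proteins and keep other basic helix-loop-helix factors off DNA. SMAD6 and SMAD7 are inhibitory SMADs, themselves induced by the pathway, and so form a feedback loop. FGF signalling through ERK is known from embryos and cell lines to oppose BMP signalling, in part by phosphorylation of the SMAD linker.

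The libraries held 13790335 and 27598608 counts in the FGF2 group and 14073340 and 27325697 counts in the NC group. Library 1 exceeded library 2 at 2 genes in each group, where 1192 in FGF2 and 1214 in NC would be expected of separate libraries, so the counts of library 2 look like those of library 1 with further reads added. Each group was counted as 1 sample, and differences below have no check by separate replicates and no p-value. A fold change is the log2 ratio of library 2 in FGF2 over library 2 in NC, and its bracketed range is a 95% exact counting interval. That range allows for counting error alone. It understates the spread: a group's disjoint read sets (library 1, and library 2 less library 1) differed with a chi-square per gene of 2.42 in FGF2 and 2.46 in NC, where counting error alone gives 1. Of 10 genes known to respond to ERK signalling, 9 were higher in the FGF2 sample, and EGR1 was lower (-0.72 on the log2 scale). The 9 were led by DUSP6 (3.51), SPRY4 (3.33) and PHLDA1 (2.66). The 1.2-fold rule given below called 12.1% of all genes tested higher and 16.3% lower. These 10 genes were listed with earlier results of these data known, so their values are a description. DUSP6 shares 40.5% and PHLDA1 16.5% of exon sequence with genes on the opposite strand.

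The labelled cell type was compared with its markers. KRT8, KRT18 and KRT19, keratins of simple epithelium, were abundant, with KRT18 at 199 FPKM in FGF2 library 2 and 193 FPKM in NC library 2. KRT19 was higher, at 47.6 FPKM in FGF2 against 27.3 FPKM in NC (0.89 on the log2 scale), and KRT8 was lower, at 191 FPKM in FGF2 against 270.3 FPKM in NC (-0.42). The epithelial adhesion gene EPCAM, in contrast, stood at only 0.518 FPKM in FGF2 library 2 and 1.19 FPKM in NC library 2, and the E-cadherin gene CDH1 at 0.0235 FPKM in FGF2 and 0.118 FPKM in NC. CLDN4 stood at 0.462 FPKM in FGF2 library 2 and 0.654 FPKM in NC library 2. CDH17 had 0 counts in FGF2 library 2 and 2 in NC library 2. Of these 7 epithelial markers, only the keratins were at 1 FPKM or more in all 4 libraries. Of 9 fibroblast markers, COL1A1, PDGFRB and THY1 were at 1 FPKM or more in all 4 libraries, while COL1A2 and FAP were at 0 in both libraries 2. The summed FPKM of the 9 was 83.8 to 84.3 in the FGF2 libraries and 141 to 145 in the NC libraries. The lower sum came mainly from COL1A1, at 59.4 FPKM in FGF2 library 2 and 104 FPKM in NC library 2, and PDGFRB, at 6.29 and 21.0 FPKM. THY1 was near equal, at 18.0 FPKM in FGF2 library 2 and 18.9 FPKM in NC library 2. COL3A1, DCN, LUM and PDGFRA were below 1 FPKM in every library. Of these, COL3A1 was called lower, with 6 counts in FGF2 library 2 and 137 in NC library 2 (-4.33 on the log2 scale). DCN had 0 counts in FGF2 and 8 in NC, LUM 0 and 12, and PDGFRA 3 and 0. Whether the lower COL1A1, COL3A1 and PDGFRB values have a part in the differences of the BMP genes was not tested. The epithelial label was thus borne out by the keratins but not by EPCAM, CDH1, CLDN4 and CDH17. Whether the cells are AGS was not tested, which bears on every value given here. The 5 endothelial markers summed to at most 0.361 FPKM in any library, with KDR and TEK at 0 in both libraries 2. Among blood markers, CD68 and CD3E were at 0 in both libraries 2, PTPRC had 0 counts in FGF2 and 2 in NC, and the monocyte marker CD14 had 46 counts in FGF2 (0.884 FPKM) and 52 in NC (1.01 FPKM). In bulk RNA, fewer cells of a type and less RNA per cell cannot be told apart.

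All 10 genes had start sites in the RefSeq promoter table (GRCh38.p14), 14 in all, and the bases in front of them were searched for letters that the choice of genes had not used. The sequence TATAA, the core of a TATA box, was looked for on the gene's own strand, beginning 40 to 16 bases before the start. It was present at 4 of the 14 starts, those of ID1, ID3, ID4 and the second listed start of SMAD7, and at 4.03% of the 35116 promoters in the table. The windows from 40 to 11 bases before the start are shown for the 4 ID genes and that SMAD7 start, 5′ to 3′ on the gene's strand with TATAA in capitals.
ID1 (chr20:31605249-31605278, plus strand): tggcgtgttTATAAaagacaagctgtggct
ID2 (chr2:8682016-8682045, plus strand): gcgagtgcggataaaagccgccccgccggg
ID3 (chr1:23559512-23559541, minus strand): caggcaggctcTATAAgtgaccgccgcggc
ID4 (chr6:19837330-19837359, plus strand): gcgcacggctcTATAAatacagctgcgcgg
SMAD7 (chr18:48949344-48949373, minus strand): cgtgcTATAAaggctggaaggtctccgtat
ID2 was the ID gene with no match in this window.

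In the 250 bases before each start, 2 kinds of letters tied to SMAD binding were counted on both strands. GGCGCC, the GC-rich element bound by SMAD1 and SMAD5, occurred at 1 of the 14 starts, that of BMP4, and at 16.4% of all promoters. GTCTG, the SMAD-binding box, occurred at 6 of 14 starts and at 38.0% of all promoters. The joined form GGCGCCNNNNNGTCT of the BMP response element occurred at none of the 14 and at 0.0769% of all promoters, and the known response elements of ID1 lie further upstream than this window. The BMP4 stretch from 240 to 171 bases before its start is shown because it holds both elements, and 30 bases of the promoter of BAMBI, a BMP target gene described below, because they hold 2 GGCGCC copies beside a box on the opposite strand. BAMBI was the only gene outside the 10 whose promoter was looked at, so its elements were not compared with those of target genes that were higher. The 250 bases before its start had a GC content of 81.2%. Capitals mark the GC-rich element and the box on either strand.
BMP4 (chr14:53955221-53955290, minus strand): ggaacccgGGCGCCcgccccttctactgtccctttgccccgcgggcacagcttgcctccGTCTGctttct
BAMBI (chr10:28677309-28677338, plus strand): ccgGGCGCCccagccgGGCGCCcCAGACgc
The 14 windows had a GC content of 35.6% to 78.8%, with a median of 64.0% against 58.0% for all promoters, and BMP5 was the lowest. A match of letters is a description and shows no binding.

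All 10 genes had lower library 2 values in the FGF2 sample than in the NC sample, and all 10 passed the filter on low counts. Of the 10, 7 were called lower, meaning that both FGF2 read sets lay at least 1.2-fold below both NC read sets. These were BMP4, BMP5, SMAD6, ID1, ID2, ID3 and ATOH8, and none of the 10 was called higher. Over all 15030 genes tested the same rule called 16.3% lower and 12.1% higher. At a 1.5-fold bound 6 of the 10 were lower, the same genes without ID1, where the rule called 7.90% of all genes lower and 3.90% higher. Since the genes were chosen with this contrast in view, nothing is read from these counts beside the background. For the 7, the lowest NC read set lay between 1.42 and 5.25 times above the highest FGF2 read set. Their read sets within a group, which are parts of 1 sample, differed by at most 1.16-fold. The 7 were called by this same gap, so a gap of at least 1.2-fold was set by the rule. Outside the 7, read sets differed by 1.77-fold for SMAD9 in NC, and in FGF2 by 1.29-fold for ID4 and 1.26-fold for SMAD7. SMAD7, SMAD9 and ID4 met neither bound.

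**Figure D1:**
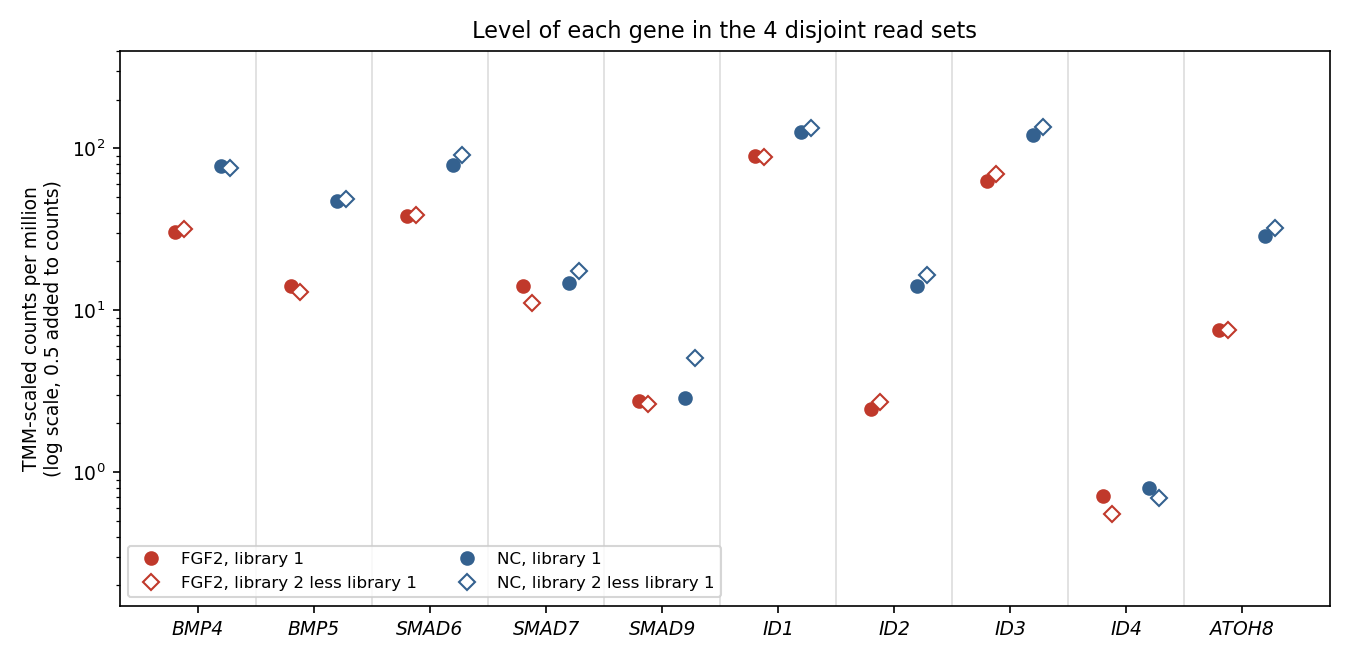
TMM-scaled CPM (log axis) of each gene in the 4 disjoint read sets, with FGF2 in red and NC in blue; circles are library 1 and diamonds are library 2 less library 1. The FGF2 and NC points lie well apart for 7 genes, come within 1.05-fold of each other for SMAD7 and SMAD9, and overlap for ID4.

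BMP4 encodes a ligand of the BMP2/4 class (ENSG00000125378, chromosome 14, 53949736 to 53958761, minus strand). It stood at 9.51 and 9.78 FPKM in the FGF2 libraries, against 25.8 and 25.6 FPKM in the NC libraries. The read counts behind these values were 404 and 832 in FGF2 and 1120 and 2152 in NC. The log2 fold change was -1.30 (-1.42 to -1.18), which is 2.46-fold lower, and the disjoint read sets gave -1.35 and -1.25. BMP5, a ligand of the BMP5/6/7 class (ENSG00000112175, chromosome 6, 55753645 to 55875564, minus strand), was lower by more. It stood at 3.43 and 3.31 FPKM in the FGF2 libraries, against 12.3 and 12.4 FPKM in the NC libraries. Its log2 fold change was -1.82 (-1.996 to -1.66), or 3.54-fold lower.

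BMP4 and BMP5 made up most of the ligand transcript in these cells. The 17 BMP and GDF ligand genes summed to 17.9 and 18.2 FPKM in the FGF2 libraries, against 44.1 and 44.9 FPKM in the NC libraries, so that the library 2 sum in FGF2 was 40.5% of that in NC. BMP4 gave 53.7% of the sum in FGF2 library 2 and 56.9% in NC library 2, and BMP5 gave 18.2% in FGF2 and 27.7% in NC. GDF6, a ligand of joint development, had 3.62 and 3.69 FPKM in FGF2 against 3.59 and 4.55 FPKM in NC. It stood above BMP5 in the FGF2 libraries and below BMP5 in the NC libraries. Its fold change was -0.21 (-0.42 to -0.02), but its disjoint read sets gave 0.11 and -0.49, which differ in sign. Its share of the sum was 20.3% in FGF2 library 2 and 10.1% in NC library 2. BMP7, which forms active dimers with BMP2 or BMP4, stood at 0.575 FPKM in FGF2 library 2 and 0.520 FPKM in NC library 2 (0.23, -0.23 to 0.69), and neither gene met the bound.

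Among the other ligands, BMP8B was called lower at 0.511 FPKM in FGF2 library 2 against 1.08 FPKM in NC library 2 (-0.98, -1.43 to -0.56). Its near copy BMP8A, named after its values were seen, was also called lower on 8 counts in FGF2 and 24 in NC. Reads of these paralogs can be split between them, so both values are uncertain. The other 11 ligand genes had too few reads for a comparison. BMP2 had 2 counts in FGF2 library 2 and 3 in NC library 2, and BMP6 had 1 in FGF2 and 8 in NC.

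The tested type I and type II receptor genes differed less than BMP4 and BMP5. BMPR1A, the type I receptor for BMP4, stood at 3.64 FPKM in FGF2 library 2 and 4.403 FPKM in NC library 2 (log2 fold change -0.19, -0.30 to -0.07). ACVR1, a type I receptor for BMP5 and BMP7, stood at 3.97 FPKM in FGF2 and 3.51 FPKM in NC (0.26, 0.06 to 0.46), and its disjoint read sets gave -0.03 and 0.66, which differ in sign. BMPR2, a type II receptor, stood at 5.49 FPKM in FGF2 and 7.46 FPKM in NC (-0.36, -0.45 to -0.27). Of the other type II receptor genes, ACVR2A stood at 0.514 FPKM in FGF2 library 2 and 0.795 FPKM in NC library 2 (-0.54, -0.93 to -0.16). ACVR2B stood at 0.759 FPKM in FGF2 and 0.804 FPKM in NC (0.004, -0.22 to 0.23). None of these receptor genes met the bound, and the type I receptor gene BMPR1B had 0 counts in both libraries 2. Of the 10 receptor and co-receptor genes tested, 2 were higher and 1 lower, while 7 met neither bound. Their median log2 fold change was -0.14 beside -0.00435 for all genes tested.

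The 3 receptor-list genes that passed act beside the signalling receptors. ENG, the co-receptor endoglin, was higher at 14.9 FPKM in FGF2 library 2 against 4.52 FPKM in NC library 2 (1.81, 1.66 to 1.96). RGMB, a membrane-anchored BMP co-receptor, was higher at 5.96 FPKM in FGF2 against 2.13 FPKM in NC (1.57, 1.40 to 1.74), but 45.6% of its exon sequence overlaps genes on the opposite strand, and the library kit does not mark strand. BAMBI, a pseudoreceptor without a kinase domain and itself a BMP target, was lower at 4.20 FPKM in FGF2 against 10.9 FPKM in NC (-1.28, -1.50 to -1.08). BAMBI was not one of the 10 genes, and its difference lay between those of SMAD6 and BMP4.

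Secreted antagonists and modulators went both ways, with 3 of 13 tested higher, 4 lower and 6 neither (median 0.06). NOG, which encodes the BMP-binding antagonist noggin, was higher at 11.1 FPKM in FGF2 library 2 against 6.02 FPKM in NC library 2 (0.97, 0.77 to 1.18). For NOG the disjoint read sets gave 1.46 (library 1) and 0.55 (remaining reads), both higher in FGF2 but far apart. GREM1, which encodes the BMP antagonist gremlin, was higher by less at 3.27 FPKM in FGF2 against 2.67 FPKM in NC (0.38, 0.26 to 0.50), and FST, which encodes the activin-binding follistatin, at 1.64 FPKM in FGF2 against 0.900 FPKM in NC (0.94, 0.53 to 1.38).

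The lower genes of that list were led by FSTL1, a secreted follistatin-like glycoprotein gene, at 49.6 FPKM in FGF2 library 2 against 149 FPKM in NC library 2 (-1.51, -1.54 to -1.48). FSTL3, which encodes another activin-binding protein, was at -0.65 (-0.73 to -0.57). BMP1 and TLL1 encode related metalloproteases that cleave procollagens and the BMP antagonist chordin, and they were lower at -0.46 (-0.56 to -0.36) and -0.46 (-0.61 to -0.31). CHRD, the chordin gene, had 2 counts in FGF2 library 2 and 10 in NC library 2 and was not tested.

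SMAD6 was the only one of the 8 SMAD genes that met the bound. It encodes the inhibitory SMAD that acts chiefly on BMP receptors and on SMAD1 (ENSG00000137834, chromosome 15, 66702228 to 66782848, plus strand). SMAD6 stood at 4.28 and 4.35 FPKM in the FGF2 libraries, against 9.51 and 10.2 FPKM in the NC libraries. The log2 fold change was -1.15 (-1.25 to -1.04) or 2.21-fold lower, and the disjoint read sets gave -1.05 and -1.24.

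SMAD7, which encodes the inhibitory SMAD shared with the TGF-beta branch (ENSG00000101665, chromosome 18, 48919853 to 48952052, minus strand), stood at 2.68 and 2.42 FPKM in the FGF2 libraries against 2.99 and 3.26 FPKM in the NC libraries. Its log2 fold change was -0.35 (-0.55 to -0.14), but library 1 alone gave -0.06 and the remaining reads gave -0.64, so its size differed between the read sets. SMAD9, a receptor-regulated SMAD of the BMP branch (ENSG00000120693, chromosome 13, 36844831 to 36920765, minus strand), stood at 0.456 and 0.450 FPKM in FGF2 against 0.509 and 0.703 FPKM in NC. It had 36 and 71 counts in FGF2 and 41 and 110 in NC. Its log2 fold change of -0.56 (-1.01 to -0.12) came mostly from the reads of NC library 2 outside library 1, since library 1 alone gave -0.06 and the remaining reads gave -0.95.

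The other SMAD genes of the branch showed no called difference. SMAD5, the most abundant BMP-branch SMAD here, stood at 13.4 and 14.3 FPKM in the FGF2 libraries and 12.8 and 13.0 FPKM in the NC libraries (0.23, 0.16 to 0.30). SMAD1 stood at 1.08 FPKM in FGF2 library 2 and 1.64 FPKM in NC library 2 (-0.52, -0.80 to -0.24), and SMAD4, the common partner, at 2.95 FPKM in FGF2 and 3.72 FPKM in NC (-0.25, -0.37 to -0.13). SMAD2 (-0.22) and SMAD3 (-0.04), which carry TGF-beta and activin signals, also met neither bound. Summed over SMAD1, SMAD5 and SMAD9, FPKM was 14.8 and 15.9 in the FGF2 libraries and 14.9 and 15.3 in the NC libraries, whereas the sum of SMAD6 and SMAD7 was 6.96 and 6.77 in FGF2 against 12.5 and 13.5 in NC. The transcripts of the BMP-branch SMADs thus outnumbered those of the inhibitory SMADs by 2.12 and 2.35 to 1 in the FGF2 libraries, and by 1.19 and 1.14 to 1 in the NC libraries.

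**Figure D2:**
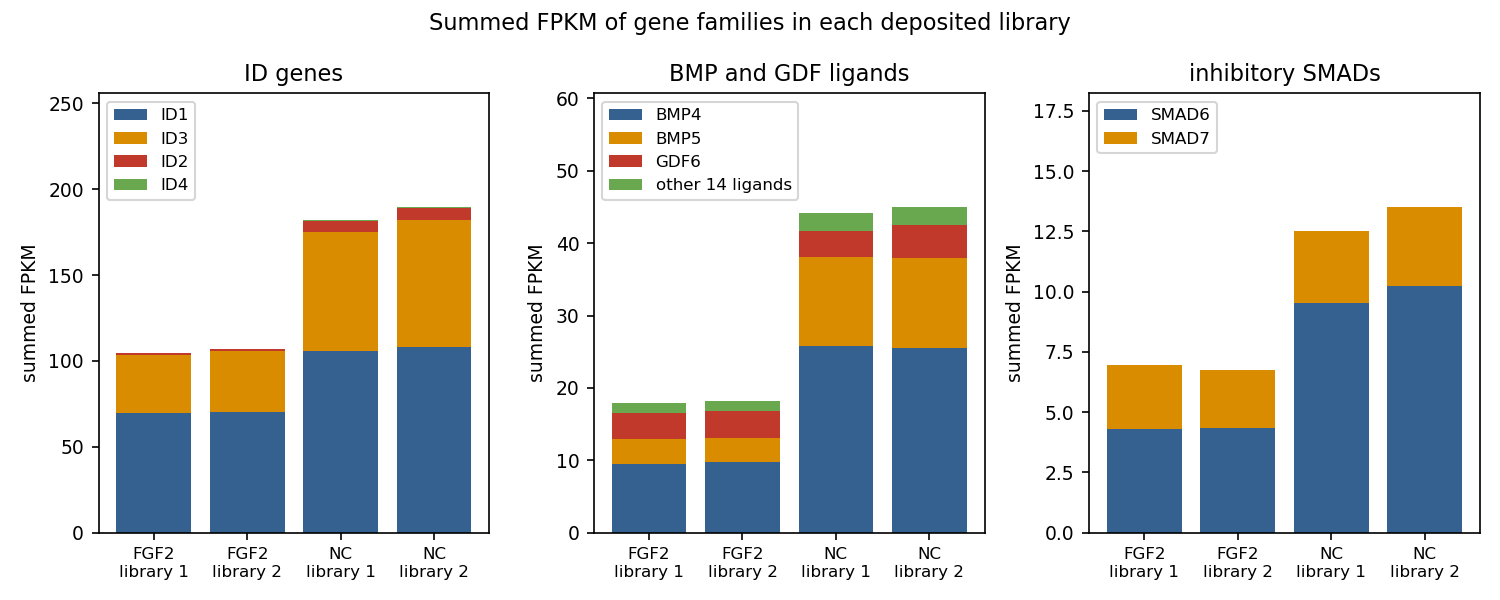
Summed FPKM (stacked bars from 0) of the ID genes, the 17 BMP and GDF ligands and the inhibitory SMADs in each deposited library, FGF2 left of NC. The ID sums are 105 and 107 in FGF2 against 182 and 189 in NC, the ligand sums 17.9 and 18.2 against 44.1 and 44.9, and the inhibitory SMAD sums 6.96 and 6.77 against 12.5 and 13.5.

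Genes for regulators of SMAD activity had 3 of 15 tested higher, 2 lower and 10 neither (median 0.12). SMURF2, a ubiquitin ligase that marks SMADs and their receptors for degradation, was higher at 17.6 FPKM in FGF2 library 2 against 7.38 FPKM in NC library 2 (1.34, 1.25 to 1.43). NEDD4L, a ubiquitin ligase for linker-phosphorylated SMADs, was higher at 7.16 FPKM in FGF2 against 3.38 FPKM in NC (1.17, 1.08 to 1.26), and the deubiquitinase gene USP15 at 3.30 FPKM in FGF2 against 2.38 FPKM in NC (0.56, 0.46 to 0.67). The phosphatase genes CTDSP2 at -0.30 (-0.36 to -0.24) and CTDSPL at -0.34 (-0.46 to -0.23), whose products remove linker phosphates from SMADs, were lower by small amounts. SMURF1, the ligase paralog best known for the BMP-branch SMADs, stood at 0.21 (0.12 to 0.31) and met neither bound.

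ID1, ID2 and ID3 were lower in the FGF2 sample, and the order of their levels stayed the same. ID1 (ENSG00000125968, chromosome 20, 31605283 to 31606515, plus strand) was the most abundant, at 69.8 and 70.0 FPKM in the FGF2 libraries against 106 and 108 FPKM in the NC libraries. Its log2 fold change of -0.54 (-0.62 to -0.47), or 1.46-fold, was the smallest of the 7 called. ID3 (ENSG00000117318, chromosome 1, 23557918 to 23559794, minus strand) stood at 33.7 and 35.6 FPKM in FGF2 against 69.3 and 73.6 FPKM in NC. Its log2 fold change was -0.96 (-1.04 to -0.88), or 1.95-fold lower. The disjoint read sets gave -0.50 and -0.58 for ID1, and -0.95 and -0.98 for ID3.

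ID2 had the lowest fold change of the 10 genes (ENSG00000115738, chromosome 2, 8678845 to 8684453, plus strand). It stood at 1.05 and 1.12 FPKM in the FGF2 libraries against 6.61 and 7.12 FPKM in the NC libraries, on 32 and 68 counts in FGF2 and 205 and 429 in NC. The log2 fold change was -2.58 (-2.98 to -2.21), which is 5.96-fold lower, and the disjoint read sets gave -2.54 and -2.60. An antisense gene overlaps 1.72% of its exon sequence. ID4 (ENSG00000172201, chromosome 6, 19837386 to 19840684, plus strand) was barely detected, with 9 and 16 counts in FGF2 against 11 and 20 in NC. Its log2 fold change of -0.24 had a counting interval of -1.30 to 0.77, so no difference was detectable at this depth.

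The 4 ID genes together summed to 105 and 107 FPKM in the FGF2 libraries against 182 and 189 FPKM in the NC libraries, a library 2 sum in FGF2 of 56.5% of that in NC. ID1 and ID3 made up nearly all of it, with ID1 at 65.4% of the sum in FGF2 library 2 and 57.2% in NC library 2, and ID3 at 33.3% in FGF2 and 38.9% in NC. ID2, with the lowest fold change, gave 1.04% of the sum in FGF2 library 2 and 3.76% in NC library 2. The E protein genes TCF3, TCF4 and TCF12, whose products ID proteins bind, summed to 53.8 and 53.3 FPKM in FGF2 and 54.2 and 53.9 FPKM in NC. Their log2 fold changes were 0.07 (0.03 to 0.12), -0.17 (-0.36 to 0.02) and 0.07 (-0.01 to 0.15), and none met the bound. ID transcripts stood at 1.95 and 2.01 times the E protein transcripts in the FGF2 libraries, against 3.35 and 3.51 times in the NC libraries.

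ATOH8, a basic helix-loop-helix factor gene of the atonal family that BMP signalling is known to induce in endothelium and liver (ENSG00000168874, chromosome 2, 85751344 to 85788066, plus strand), had the second lowest fold change. It stood at 1.19 and 1.205 FPKM in the FGF2 libraries against 4.88 and 5.16 FPKM in the NC libraries, on 100 and 202 counts in FGF2 and 417 and 856 in NC. The log2 fold change was -2.01 (-2.24 to -1.79), or 4.02-fold lower, and the disjoint read sets gave -1.93 and -2.08. Of 7 E protein and class II factor genes tested, only TWIST1 met the bound. It stood at 8.75 FPKM in FGF2 library 2 against 15.98 FPKM in NC library 2 (-0.78, -0.94 to -0.62), while its paralog TWIST2 stood at -0.08 (-0.22 to 0.05).

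**Figure D3:**
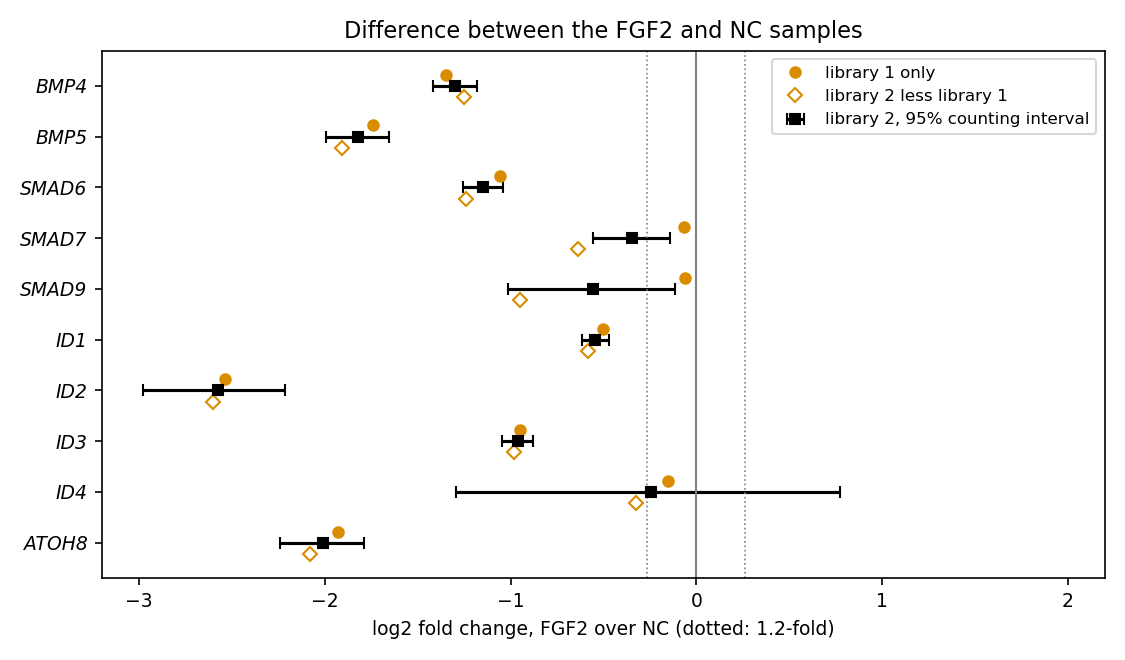
Log2 fold change, FGF2 over NC, of each gene from library 2 (squares, with 95% exact counting intervals), from library 1 only (circles) and from library 2 less library 1 (open diamonds). All 10 squares lie below 0, from -2.58 for ID2 to -0.24 for ID4, and the read sets lie far apart for SMAD7 and SMAD9.

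The whole list of BMP target genes, with those of the 10 counted, had 4 higher, 6 lower and 11 neither of 21 tested (median -0.35). Those of the 10 were chosen with this contrast in view. Leaving them out takes lower genes away by choice, so the remaining genes do not describe the list as a whole. Known BMP target genes outside the 10 did not share one direction. Of 13 tested, 4 were higher and 1 lower, while 8 met neither bound, and the median log2 fold change was 0.19. The lower one was BAMBI. The higher ones were TBX3, a T-box factor gene, at 12.8 FPKM in FGF2 library 2 against 6.61 FPKM in NC library 2 (1.04, 0.93 to 1.15), NOG at 0.97, GATA3, a zinc finger factor gene, at 0.80 (0.46 to 1.15) and DLX1, a homeobox gene, at 0.45 (0.29 to 0.62). The homeobox genes MSX1 and MSX2, classical targets in limb and tooth, stood at -0.27 (-0.45 to -0.08) and -0.40 (-0.82 to -0.002) and met neither bound. For MSX2 the disjoint read sets gave -0.89 and 0.05, which differ in sign. GATA2, the most abundant target outside the 10 genes, stood at 18.3 FPKM in FGF2 library 2 and 20.9 FPKM in NC library 2 (-0.11, -0.19 to -0.03).

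Over all 7 pathway lists, 65 of 99 genes outside the 10 were tested, with 11 higher, 10 lower and 44 meeting neither bound. The median over the 65 was -0.04, beside -0.00435 over all genes tested, and 33 of the 65 were below 0. The 10 chosen genes themselves had a median of -1.05. They were chosen with this contrast in view and the 65 are what was left, so nothing is read from the gap between these medians.

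**Figure D4:**
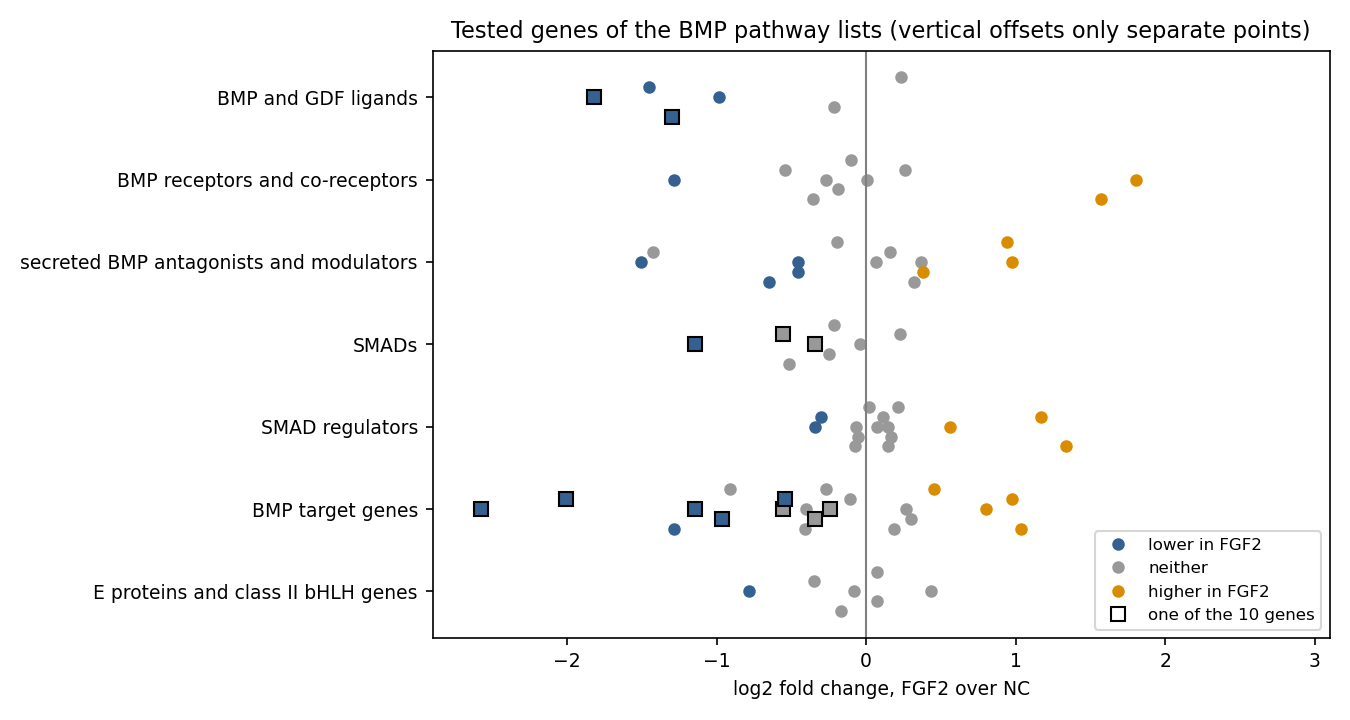
Log2 fold change, FGF2 over NC, of every tested gene in the 7 pathway lists; squares outlined in black are the 10 chosen genes, and colours give the 1.2-fold call. ID2, ATOH8 and BMP5 are the lowest points, from -2.58 to -1.82, and ENG, RGMB, SMURF2 and NEDD4L the highest, from 1.81 to 1.17.

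Genes next to the 10 on the chromosome were also looked at, a comparison added after the values were seen. The nearest tested protein-coding gene on each side gave 20 neighbours, with 4 higher, 4 lower, 12 meeting neither bound and a median of -0.01 on the log2 scale. E2F2, a cell cycle factor gene 26.7 kb from ID3, was lower at -0.93, close to the value of ID3, whereas RPL11 on the other side of ID3 stood at 0.22. CTIF, 56.6 kb from SMAD7, was lower at -0.83. BCL2L1, a survival gene 57.9 kb from ID1, was higher at 0.41, and KIDINS220, 36.6 kb from ID2, stood at 0.01. Little exact sequence was shared between the 10 genes and other annotated transcripts, and shared reads were not counted. Of their transcript 50-mers, 0.651% for ID2 and 0.559% for SMAD9 occur in transcripts of other genes of the GENCODE v29 annotation, and 0 for the other 8 genes.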

How the data were processed

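Raw read counts and FPKM values per gene were deposited in 1 table per library. The submitters' processing notes name HISAT2, HTSeq 0.13.5 and GRCh38. Which annotation the authors counted on is not stated in those notes. The deposited FPKM values equalled counts divided by gene length and library total, with a GENCODE v29 exon length at 99.5% of genes checked. All 51103 identifiers are in that release, and 12 date-like names were restored from it. Low counts were filtered with filterByExpr of edgeR 4.0.16 on the 4 libraries, leaving 15030 genes, and scaled by TMM. Fold changes took library 2 with 0.5 added to counts. Calls used the disjoint read sets. Counting intervals are Clopper-Pearson. Alternatives were total counts, DESeq2 1.42.0 size factors, FPKM, other filters, priors and bounds, the mean of libraries, each library left out and a replicate block. No p-value was computed, since each group was counted as 1 sample.

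The members and lists were chosen with earlier results of these data known. All 10 members were named. Of other list genes, those called were named if their read sets averaged 50 counts or more, up to 8 per list, with BMPR1A, ACVR1, BMPR2, SMAD1, SMAD4 and SMAD5 whatever their change. Other genes named for context were chosen after their values were seen.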

Additional observations from a re-analysis of the deposited data

How the results depend on the processing

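The log2 fold changes of the 10 genes kept their sign under every alternative run, and the values stayed inside the counting interval in 122 recomputations and left it in 6. These were ID1 (-0.63) and ID3 (-1.05) with total counts and with FPKM, SMAD7 (-0.64) from library 2 less library 1 and SMAD9 (-0.11) without the second NC library. Leaving out library 1 of either group could not move a fold change, since it takes library 2 alone. The other runs reuse reads of the same samples, so the 122 are not independent checks. Scaling by total count moved all log2 values by -0.09. The 7 lower genes were called lower under every alternative run except the stricter bounds, which left 6 at 1.5-fold and 5 at 2-fold. SMAD9 joined them with the mean of both libraries and without NC library 1 (8 genes), and all 10 were lower from library 2 less library 1. These looser settings called 4296, 3199 and 4502 of the 15030 genes lower, in that order, against 2443 in the main run. From library 2 less library 1, ID4 passed on 7 counts in FGF2 and 9 in NC. Under no alternative was any of the 10 called higher. Genes outside the 10 in the pathway lists, 11 higher and 10 lower, became 6 and 4 at 1.5-fold, 4 and 3 at 2-fold, and 18 and 17 from library 2 less library 1. The lower count became 22 with FPKM, 21 with the mean of both libraries, 20 with a replicate block and 14 to 18 with 1 library left out, at 18 without FGF2 library 2 and 17 without NC library 2.

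Over all genes, the 1824 higher and 2443 lower became 1208 and 1617 with at least 50 counts, because fewer genes were tested, 586 and 1187 at 1.5-fold, 264 and 506 at 2-fold, 3409 and 4296 with the mean of both libraries and 3735 and 4502 from library 2 less library 1, where 1 value per group had to pass. The lower count became 4035 with FPKM, and the higher count 2777 with a replicate block. With total counts the split was 1295 higher and 3050 lower. In both groups the counts of library 2 look like those of library 1 with further reads added, so the replicate number was not taken to pair separate samples. ID4 was limited by depth, with at most 20 counts in a library. The NC read sets of SMAD9 held 41 and 69 counts, and the cause of that spread was not tested.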
